A study of Homo sapiens with 4 samples.

Results

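The suppressors of cytokine signalling, SOCS1 to SOCS7 and CISH, were examined in A549, a human lung adenocarcinoma cell line, 3 h after 100 nM dexamethasone (dex), a synthetic glucocorticoid, or 0.02% ethanol as vehicle (etoh). The family was taken by gene symbol and comprised 8 of the 34608 genes and 27 of the 119207 transcript sequences in the count tables. RNA was sequenced in 2 libraries per group, each of which held between 9764159 and 11887526 aligned reads. The series is titled for direct binding of the glucocorticoid receptor to DNA. Nothing in the labels ties replicates to separate cultures, and p-values therefore reflect library-to-library spread that may be technical. In bulk RNA, fewer cells of a type and less RNA per cell cannot be told apart.

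Cytokine receptors without kinase activity of their own signal through bound Janus kinases (JAKs), which phosphorylate STAT transcription factors. STATs in turn switch on several SOCS genes, and the SOCS proteins close the loop by binding phosphorylated receptors or kinases through an SH2 domain. Their C-terminal SOCS box recruits elongins and a cullin to form a ubiquitin ligase. SOCS1 and SOCS3 also carry a short segment that blocks JAK activity directly, CISH and SOCS2 act on growth hormone and other STAT5-activating receptors, and SOCS4 to SOCS7 are linked more to growth factor receptors and insulin signalling.

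The labels were checked first. The hormone-induced genes FKBP5, TSC22D3 and PER1 were higher in both dex libraries than in both etoh libraries, with log2 fold changes of 3.38, 4.45 and 3.87. Of 6 epithelial markers of the line, KRT8, KRT18 and KRT7 rose, CLDN1 fell and 2 were not called, and the summed level was 7396 and 8562 counts per 1000000 aligned reads (CPM) in dex and 4327 and 5001 CPM in etoh. The alveolar genes SFTPA1 and SFTPA2 had no read in any library, and SFTPB, SFTPC and NKX2-1 had means below 0.4 CPM in both groups. ABCA3, a lipid transporter of that list, was at 25.5 ± 2.54 CPM in etoh and rose to 34.9 ± 8.15 CPM in dex (log2 fold change 0.47). Its adjusted p by edgeR was 0.047, close to the threshold of 0.05. Summed markers of leukocytes, fibroblasts and endothelium were at most 7.22, 21.8 and 0.509 CPM in any library. The leukocyte marker CD3E, the fibroblast marker COL1A2 and the endothelial marker VWF had no read. The fibroblast marker COL1A1 rose from 12.9 ± 3.50 to 19.0 ± 3.25 CPM (log2 fold change 0.56), also close to the threshold (adjusted p = 0.045 by edgeR). Of the leukocyte markers, 0 were called. The part of these marker changes in the values of the SOCS genes was not tested.

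SOCS1 rose and SOCS5 fell after dexamethasone. SOCS1 went from a mean of 0.0421 ± 0.0595 CPM in etoh to 1.42 ± 0.144 CPM in dex, and SOCS5 from 123 ± 3.21 to 75.4 ± 5.95 CPM (all errors SD, n = 2 libraries per group). SOCS2, SOCS3, SOCS4, SOCS6 and SOCS7 were tested and stayed above an adjusted p of 0.05 (quasi-likelihood test of edgeR, Benjamini-Hochberg adjustment over 14777 genes), and CISH had too few reads to be tested. Thus 1 of 7 tested members was called higher, where 6.98% of all tested genes were, and 1 was called lower, where 4.42% were. In either direction 11.4% of all tested genes were called. In all 7 tested members both dex libraries lay on the same side of both etoh libraries, 2 above and 5 below, and 53.3% of all tested genes showed such a separation. SOCS1 was tested only because its dex libraries passed the count filter, so it had to differ if tested, and its share of these counts supports nothing. The median log2 fold change, dex against etoh, was -0.30 over the 7 tested members and 0.00 over all tested genes.

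**Figure D1:**
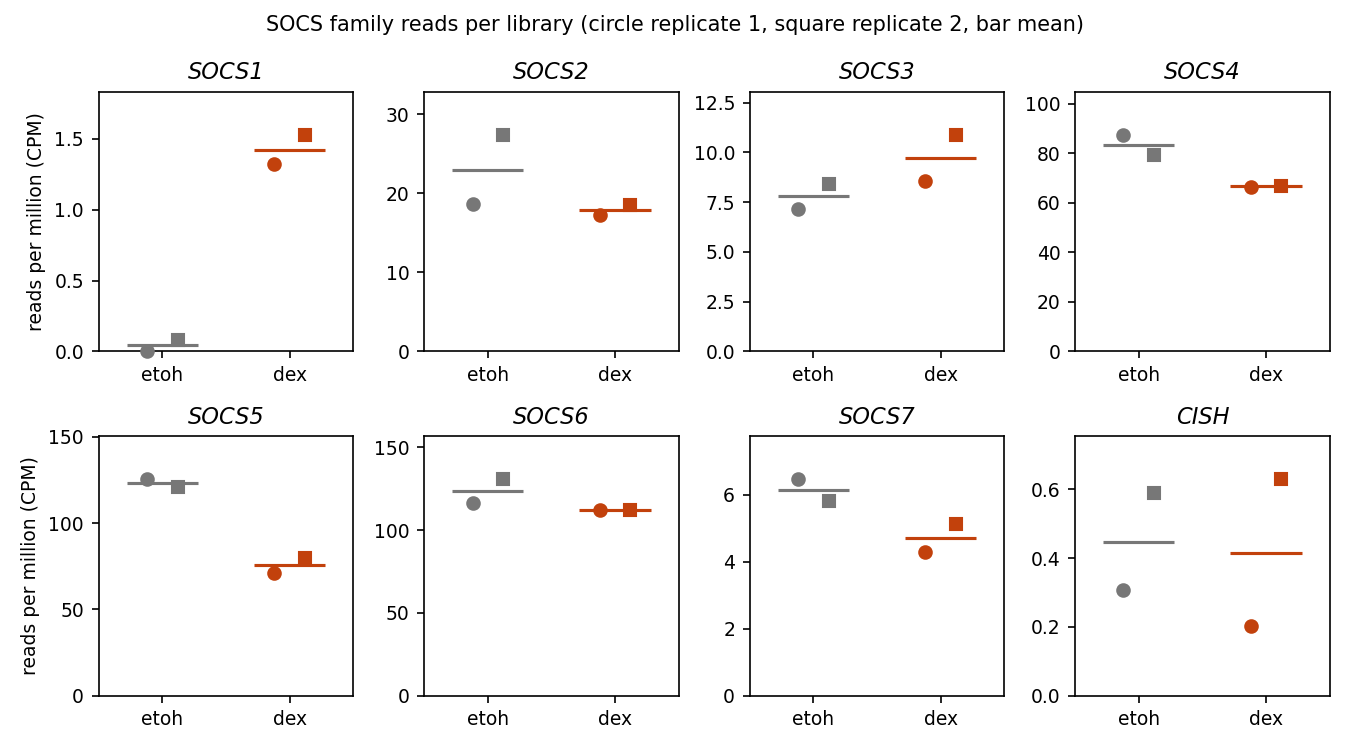
Counts per 1000000 aligned reads (CPM, linear axis from 0) of each SOCS gene in the 2 etoh and 2 dex libraries; circles are replicate 1, squares replicate 2 and bars group means. SOCS1 is at 0 and 0.0841 CPM in etoh and at 1.32 and 1.53 CPM in dex, SOCS5 is lower in both dex libraries, and CISH is below 0.7 CPM in every library.

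SOCS1 encodes the inhibitor that binds JAKs and restrains interferon signalling. Its only counted transcript, SOCS1-001, had 13 and 17 reads in dex replicates 1 and 2 and 0 and 1 read in etoh replicates 1 and 2. These are 1.32 and 1.53 CPM against 0 and 0.0841 CPM, so that nearly every SOCS1 read came from treated cells. A library with 0 reads is below a floor of 3 counts, which was 0.307 CPM in etoh replicate 1. The ratio of summed reads per effective library size was 31.4, with an exact 95% counting interval of 5.22 to 1280. The interval is wide because etoh held 1 read. The log2 fold change fitted by edgeR was 4.65 (SE 0.82, adjusted p = 0.00036), a value that depends on the small count added to empty libraries. The gene's fitted value was 3.94 without etoh replicate 1 and 6.89 without etoh replicate 2. In a fit over all transcripts SOCS1-001 was also called higher, as were 3.57% of 49857 tested transcripts. That fit used the same reads of SOCS1, so it is not separate evidence. SOCS1 passed the filter on low counts through its dex libraries alone, it fell below that filter without dex replicate 2, and DESeq2 gave it no adjusted p.

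SOCS1 lies on chromosome 16 from 11254405 to 11256200 on the minus strand (GRCh38, GENCODE 29). No stretch of 30 bases in its transcripts occurs in another gene of GENCODE 29. The bases upstream of its start are shown because SOCS1 is the member that rose. In the RefSeq promoter table (GRCh38.p14), the 250 bases before the start site, at chr16:11256205-11256454 on the minus strand, read 5′ to 3′ as follows, in lower case throughout because none of the motifs searched was found in them.
SOCS1: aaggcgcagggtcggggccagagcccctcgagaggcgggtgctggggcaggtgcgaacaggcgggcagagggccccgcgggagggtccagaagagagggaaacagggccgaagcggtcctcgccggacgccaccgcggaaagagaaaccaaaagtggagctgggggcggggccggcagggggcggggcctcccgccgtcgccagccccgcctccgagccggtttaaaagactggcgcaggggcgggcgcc

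The windows searched ran from 250 bases before to 50 bases after each start, on both strands. They were searched for the full glucocorticoid receptor palindrome, a looser form of it that covers the same letters, the STAT motif TTCNNNGAA, and a strict and a looser form of the NF-kB motif, which can overlap each other. The looser receptor palindrome was in 0.39% of 35116 promoter windows and the full one in 1 of them, TTCNNNGAA was in 7.66%, and the strict and looser NF-kB forms were in 0.191% and 6.52%. The window of SOCS1 held none of them. It was 74.0% G and C, against a median of 58.7% over all windows. This says only that these letters are not in this window.

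SOCS5 encodes an inhibitor linked to epidermal growth factor receptor and interleukin 4 signalling. It had 71.2 and 79.6 CPM in dex replicates 1 and 2 and 125 and 121 CPM in etoh replicates 1 and 2. Both dex libraries were below both etoh libraries, and the gap between groups was wider than the spread within either. The log2 fold change was -0.69 (SE 0.11, adjusted p = 7e-05), so that the level fell by 37.9%. It lay between -0.76 and -0.61 when each library was left out in turn, and the gene was called each time. Among the 653 genes called lower the median log2 fold change was -0.60, and 40.0% of them had a more negative value than SOCS5.

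SOCS5 lies on chromosome 2 from 46698952 to 46780245 on the plus strand. The 2 counted transcripts, SOCS5-001 of 4771 bases and SOCS5-002 of 4058 bases, held 53.5% and 46.5% of its reads. In the fit over transcripts, SOCS5-001 was at -0.71 (SE 0.12, adjusted p = 0.00018) and SOCS5-002 at -0.67 (SE 0.12, adjusted p = 0.00059). Both fell, where 2.07% of all tested transcripts were called lower. Reads that fit both transcripts were placed by the aligner, so the transcripts are not separate evidence. Of the 30-base stretches of SOCS5 transcripts, 10.4% also occur in other genes of GENCODE 29, among them the pseudogenes SOCS5P3 and SOCS5P5. Reads from such copies cannot be told apart from reads of SOCS5. SOCS5 also shares 160 exonic bases with LINC01118, which had 0 reads.

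**Figure D2:**
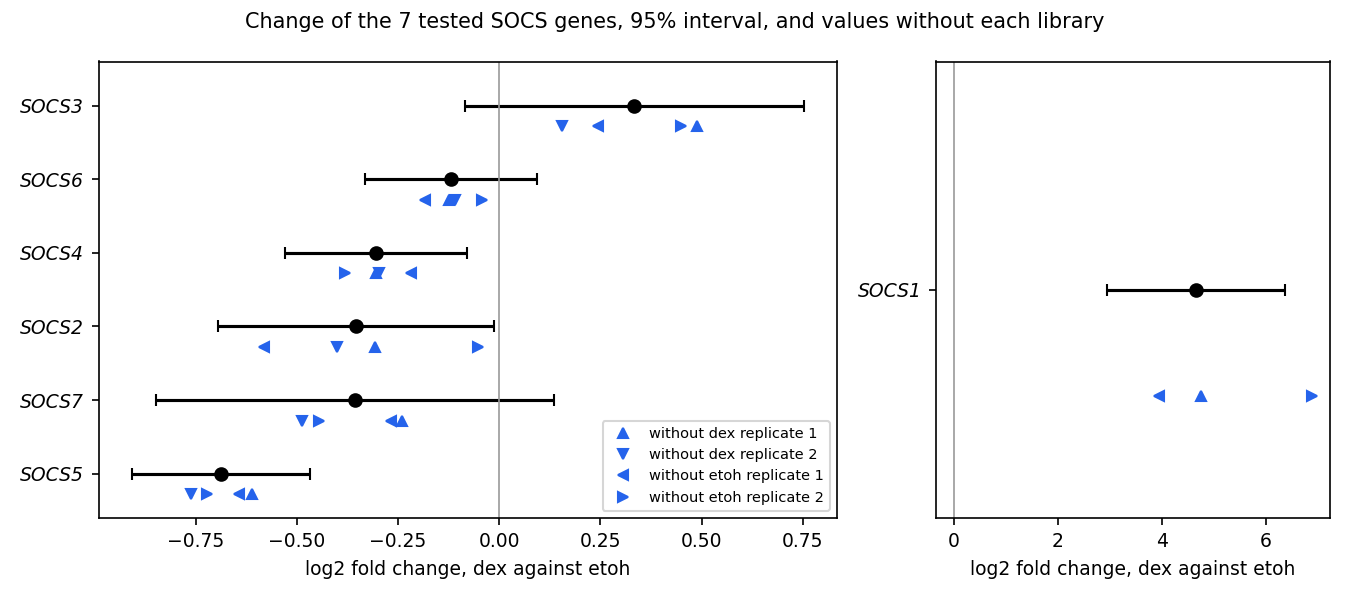
Log2 fold change, dex against etoh (x axis), of the 7 tested SOCS genes. Black bars are 95% intervals built from the SE, and blue points are the values with each library left out. SOCS1 has an axis of its own. Its interval of 2.95 to 6.36 is only approximate, and its value without etoh replicate 2, 6.89, lies outside. The interval of SOCS5 runs from -0.91 to -0.47, and the SOCS2 values spread from -0.58 to -0.05 with the etoh library that is left out.

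SOCS3, which binds the shared receptor chain gp130 and ends interleukin 6 signalling, had 8.55 and 10.9 CPM in dex replicates 1 and 2 and 7.17 and 8.41 CPM in etoh replicates 1 and 2. The dex libraries were above the etoh libraries by a narrow margin. Its log2 fold change was 0.33 (SE 0.20, 95% interval -0.08 to 0.75, adjusted p = 0.34 by edgeR). Of its 375 reads, 374 lay on SOCS3-001. SOCS3 is at chromosome 17 from 78356778 to 78360077 on the minus strand.

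SOCS4, related to SOCS5 in sequence, had 66.6 and 66.8 CPM in dex and 87.4 and 79.5 CPM in etoh. The dex libraries lay below the etoh libraries, at a log2 fold change of -0.30 (SE 0.11, 95% interval -0.53 to -0.08). The unadjusted p was 0.011 and the adjusted p 0.078 by edgeR, so SOCS4 missed the threshold. The 3 counted transcripts SOCS4-001, SOCS4-003 and SOCS4-002 were at -0.31, -0.26 and -0.41, and none was called. SOCS4 is at chromosome 14 from 55027230 to 55049488 on the plus strand.

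SOCS2, the inhibitor of growth hormone signalling, had 17.2 and 18.5 CPM in dex and 18.6 and 27.3 CPM in etoh. Etoh replicate 1 was close to the dex libraries and etoh replicate 2 stood above all 3. The log2 fold change was -0.35 (SE 0.16, 95% interval -0.70 to -0.01, adjusted p = 0.19 by edgeR). Without etoh replicate 2 it was -0.05, and without etoh replicate 1 it was -0.58 with an adjusted p of 0.021, which is past the threshold. Its call thus depends on which etoh library is used. SOCS2 is at chromosome 12 from 93569814 to 93583487 on the plus strand.

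Reads of SOCS2 were spread over 10 transcripts, each with at least 10 reads, more than for any other member. SOCS2-005, of 3733 bases, held 28.6% of the reads and was at -0.14 (SE 0.22). SOCS2-002 and SOCS2-006 held 15.4% and 14.9% and were at -0.71 (SE 0.33) and -0.68 (SE 0.28). None of its 7 tested transcripts was called by edgeR, although SOCS2-002 was called at -1.25 without dex replicate 2 and at -1.07 without etoh replicate 1. The difference between these transcripts was not tested. SOCS2 shares 277 exonic bases with the antisense gene SOCS2-AS1, and whether reads were counted by strand is not stated. SOCS2-AS1 had 12 and 25 reads in dex and 23 and 19 in etoh, far fewer than the 169 to 325 reads of SOCS2 per library.

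SOCS6 and SOCS7, linked to receptor tyrosine kinase and insulin signalling, gave smaller differences for their error. SOCS6 had 112 CPM in both dex libraries and 116 and 131 CPM in etoh, at a log2 fold change of -0.12 (SE 0.10, 95% interval -0.33 to 0.09). SOCS6-001 held 75.0% of its reads and was at -0.10, whereas the minor transcript SOCS6-003 had 26 and 27 reads in dex against 12 and 28 in etoh. SOCS7 had 4.27 and 5.12 CPM in dex and 6.45 and 5.80 CPM in etoh, at -0.36 (SE 0.24, 95% interval -0.85 to 0.14). Neither was called by edgeR, with adjusted p of 0.53 and 0.40. The interval of SOCS7 includes the value of SOCS5. SOCS6 is at chromosome 18 from 70288901 to 70330200 and SOCS7 at chromosome 17 from 38352228 to 38405593, both on the plus strand.

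**Figure D3:**
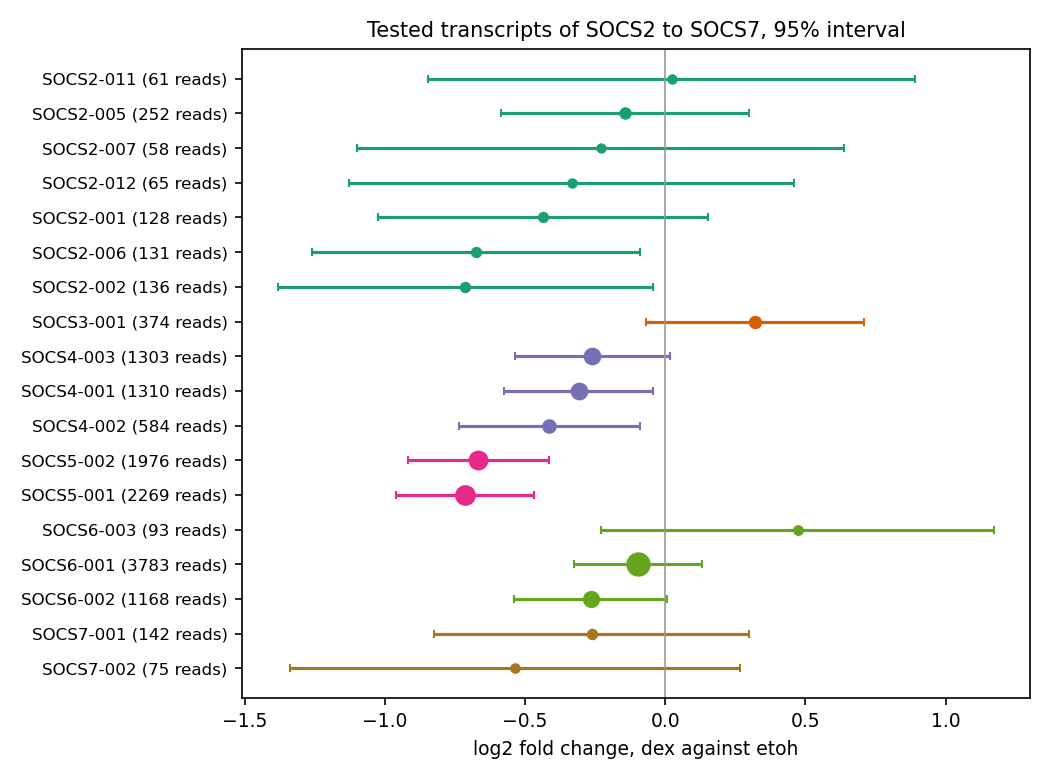
Log2 fold change, dex against etoh (x axis), with 95% interval, of the 18 tested transcripts of SOCS2 to SOCS7; colour marks the gene and point size the number of reads. Both SOCS5 transcripts lie near -0.7 with intervals below 0, and the SOCS2 transcripts run from -0.71 to 0.02 with wide intervals.

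CISH, the STAT5-induced inhibitor after which the family was first described, had 2 and 7 reads in dex and 3 and 7 in etoh. These are 0.203 and 0.628 CPM against 0.307 and 0.589 CPM, and the groups overlapped. The ratio of summed reads per effective library size, dex over etoh, was 0.941 with an exact 95% counting interval of 0.338 to 2.58. A change of 2-fold in either direction lies inside this interval and was not excluded. CISH, at chromosome 3 from 50606490 to 50611831 on the minus strand, shares 218 exonic bases with MAPKAPK3 on the opposite strand, a gene with 594 to 770 reads per library. Its part in the CISH reads was not tested.

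The CISH promoter is shown because it holds matches to the STAT motif. It was picked for these matches, so the rarity of their count supports nothing. In the RefSeq table its window, at chromosome 3 on the minus strand with the start at 50611774, held 4 matches to TTCNNNGAA, a count reached in 7 of 35116 windows (0.0199%). The matches began at positions -241, -230, -129 and -112 from the start. They are in capitals in the stretches at chr3:50611994-50612017 and chr3:50611876-50611905, written 5′ to 3′ on the minus strand.
CISH distal pair: ttTTCCTGGAAagTTCTTGGAAat
CISH proximal pair: ggTTCTAGGAAgacgctgcTTCCGGGAAgg
A match describes letters and not occupancy. Windows of 5 members were in the table (CISH, SOCS1, SOCS3, SOCS4 and SOCS6). Outside CISH, TTCNNNGAA was found in none of these windows, and 1 of the 2 SOCS3 windows held a match to the looser NF-kB form. The SOCS3 windows had starts at 78359667 and 78360925, whereas SOCS3 in GENCODE 29 begins at 78360077 on the minus strand. The bases just before that position were in neither window and were not searched. None of the window starts is a transcript start in GENCODE 29. The CISH start lies inside the gene, which begins at 50611831 there, so the positions given hold for the RefSeq start only. The SOCS6 window has its start at 70289045, also inside the gene, which begins at 70288901.

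Scaled to transcript length (RPKM, the CPM per kilobase summed over transcripts), the members differed widely in level. In etoh SOCS6 and SOCS5 were at 29.1 ± 3.00 and 27.9 ± 0.744 RPKM, and their libraries overlapped. SOCS4 and SOCS2 followed at 13.9 ± 0.958 and 12.6 ± 3.95 and also overlapped. SOCS7 was at 3.73 ± 0.364, SOCS3 at 2.85 ± 0.322, CISH at 0.214 ± 0.0945 and SOCS1 at 0.0343 ± 0.0486. In dex the order of the first 4 was the same, but SOCS5, at 17.1 ± 1.36, no longer overlapped SOCS6, at 26.8 ± 0.363. SOCS3 stood above SOCS7 and SOCS1 above CISH. No other neighbours in the etoh order overlapped, and none in the dex order did. The members closest to the JAKs, SOCS1 and SOCS3, and the STAT5 target CISH were thus among the 4 lowest in both groups.

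**Figure D4:**
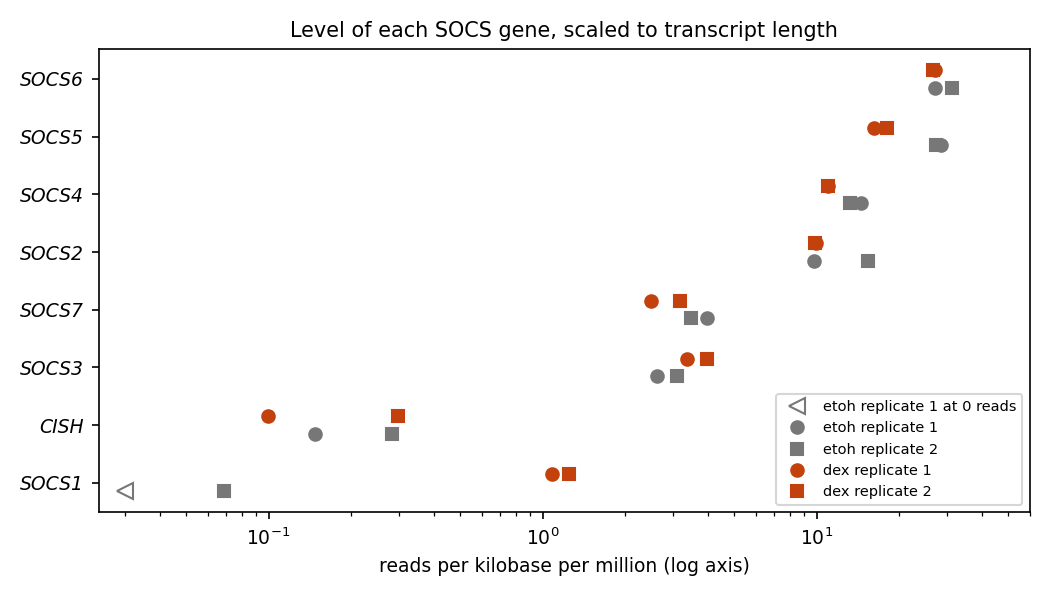
Level per transcript length (RPKM, x axis, log scale) of each SOCS gene in every library, ordered by the etoh mean; grey is etoh, orange dex, circles replicate 1 and squares replicate 2, and the open triangle stands for a library with 0 reads. SOCS6 is the highest in both groups, and the lowest gene is SOCS1 in etoh and CISH in dex.

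Added together, reads of the 8 genes made up 282 and 295 CPM in dex replicates 1 and 2 and 362 and 373 CPM in etoh replicates 1 and 2. SOCS5 gave 25.3% and 27.0% of them in dex and 34.6% and 32.4% in etoh, and SOCS6 gave 39.9% and 38.0% against 32.2% and 35.0%. SOCS1 gave 0.469% and 0.517% in dex. The sum therefore followed the abundant members, and SOCS1 hardly entered it.

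Genes whose values over the 4 libraries ran most like those of the called members were found by the distance between centred log2 values (CPM plus 0.5), among genes of similar mean level. For SOCS5, out of 3175 candidates, these were RIPK2, a kinase of innate immune signalling, C5orf30 and AVL9, at distances of 0.0852, 0.0874 and 0.0881. RIPK2 was at a log2 fold change of -0.75, C5orf30 at -0.62 and AVL9 at -0.61. For SOCS1, out of 696 candidates, they were WISP1-UT1, the granulocyte growth factor gene CSF3 and SLC6A19, at distances of 0.233, 0.265 and 0.276. WISP1-UT1 had 16 and 24 reads in dex and 2 and 4 in etoh, at a log2 fold change of 2.75. CSF3 had 10 and 12 reads in dex and SLC6A19 12 and 12, and neither had a read in etoh. Each profile rests on 4 libraries only. The genes were picked by these same values, so the likeness of their changes was set by the choice and supports nothing.

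The rest of the pathway was read from lists of genes, whose counts are set beside the 11.4% called among all genes. The lists were chosen with earlier results of these data known, so their shares are descriptions only. Of 11 JAK and STAT genes, 2 rose and none fell, with a median log2 fold change of 0.10. JAK1, the kinase shared by most of these receptors, rose from 534 ± 24.9 to 675 ± 8.17 CPM (0.36, SE 0.09), and STAT3, the main factor below interleukin 6, from 185 ± 2.46 to 233 ± 0.537 CPM (0.35, SE 0.10). Both lost their call without etoh replicate 1. STAT3 also lost it when either dex replicate 1 or etoh replicate 2 was left out and with the most read transcript in place of the sum.

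Larger shares of the tested ligands and receptors were called. Of 25 ligands in the count tables, only 7 had enough reads to be tested. Of these 7, 1 rose and 3 fell, with a median of -0.14. IL11 fell from 29.6 ± 0.769 to 2.92 ± 0.190 CPM and LIF from 37.7 ± 8.03 to 17.2 ± 0.102 CPM, and both act through gp130. IL15 fell by 0.49 on the log2 scale, and it was not called by DESeq2, with its most read transcript alone, or without dex replicate 1 or etoh replicate 1. CSF3 was 7.67-fold higher in dex when the etoh group was set to a floor of 3 counts. Counting error of the dex reads is not in this value. CSF3 was tested only through its dex libraries, so it had to differ if tested, and its share of the ligand count supports nothing. Leaving out either dex replicate, or using its most read transcript alone, gave it no test, and DESeq2 gave it no adjusted p. Its receptor gene CSF3R had no read in any library.

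The receptor list held cytokine receptors and also receptors of growth factors and insulin (EGFR, KIT, IGF1R and INSR). Of 21 tested receptors, 6 rose and 2 fell, with a median of 0.17. IL6R, which binds interleukin 6, rose from 7.24 ± 0.481 to 31.2 ± 0.736 CPM (2.13, SE 0.16) and LIFR from 38.1 ± 0.402 to 73.6 ± 6.51 CPM (0.97, SE 0.11). IFNGR1, a chain of the interferon gamma receptor, rose by 0.77 (SE 0.11). IL22RA1 rose by 2.46 (SE 0.35), with 8.14 and 4.67 CPM in dex against 1.23 and 1.09 in etoh. IL6ST, which encodes gp130 and was chosen after its values were seen, rose by 0.62 (SE 0.10). INSR, the insulin receptor gene and chosen in the same way, rose by 0.94 (SE 0.16), whereas EGFR and IGF1R were not called. The receptors that fell, also named after their values were seen, were OSMR, a partner of gp130, at -0.45 (SE 0.10), and IL4R, the interleukin 4 receptor, at -0.66 (SE 0.15).

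Of 14 tested brakes outside the SOCS family, 3 rose and none fell, with a median of 0.07. PIAS1 and PIAS3, which hold back STATs in the nucleus, rose by 0.50 (SE 0.11) and 0.59 (SE 0.12), and the phosphatase gene PTPN6 by 0.90 (SE 0.23). PTPN6 was not called by DESeq2 or without dex replicate 1 or etoh replicate 1, and neither PTPN6 nor PIAS3 was called from the most read transcript alone. Of 10 parts of the ligase that SOCS boxes recruit, the elongin gene TCEB1 rose by 0.44 (SE 0.10), none fell, and the cullin CUL5 was at -0.10 (SE 0.11). CUL5 was at 0.03 without etoh replicate 1, and TCEB1 was not called from its most read transcript alone.

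Of 16 tested genes for other proteins with a SOCS box, 3 rose and none fell, with a median of 0.01. They were SPSB1, up by 0.75 (SE 0.15), SPSB2, up by 1.00 (SE 0.30), and ASB13, up by 0.56 (SE 0.15). SPSB1 and SPSB2 share a SPRY domain and bind the inducible nitric oxide synthase. SPSB2 was not called without dex replicate 1 or etoh replicate 2 or from its most read transcript alone, ASB13 was not without etoh replicate 1, and DESeq2 called neither.

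Of 24 tested genes known to respond to STAT3 or STAT5, 12 rose and 2 fell, with a median of 0.42. PIM3, a survival kinase, rose by 1.82 (SE 0.18), and CEBPB, a transcription factor of the acute phase response, by 1.21 (SE 0.12). IER3, an early stress gene, fell by 1.80 (SE 0.19). CEBPB is also a known glucocorticoid target, and STAT activity itself was not measured.

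**Figure D5:**
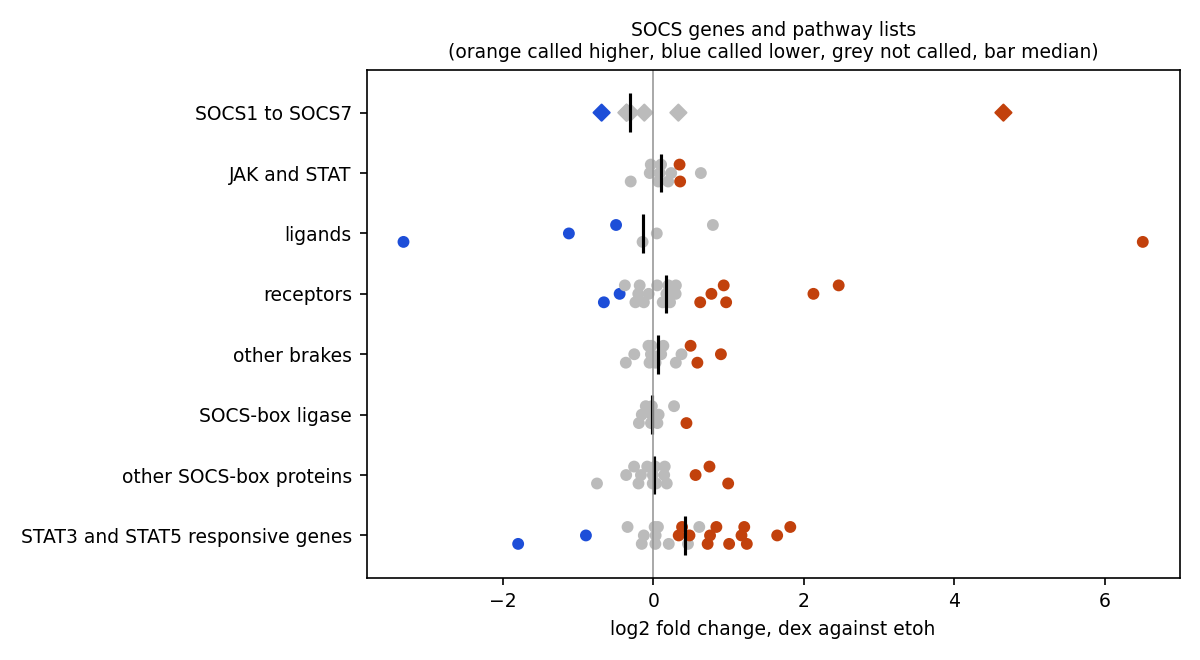
Log2 fold change, dex against etoh (x axis), of the tested SOCS genes (diamonds) and of each tested gene in 7 pathway lists (dots); orange is called higher, blue called lower and grey not called, and black bars are medians. The medians run from -0.30 for the SOCS genes to 0.42 for the STAT3 and STAT5 responsive genes, and the values of SOCS1 and CSF3 rest on at most 1 etoh read each.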

How the data were processed

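RNA from 2 dex and 2 etoh libraries of A549 cells was analysed. The authors' deposited files hold raw counts of aligned reads per transcript, with transcript lengths and, on an unnamed row, unaligned reads (17.2% to 18.7% of all reads), which were left out. The submitters' processing notes name the tools DESeq2, SAMtools, Bowtie and CASAVA without version or role. Genome build, aligner settings, annotation and strandedness: not given in the sources used here. Reads were summed over the transcripts of a gene identifier, because the most read transcript holds only part of a gene's reads. CPM is counts per 1000000 aligned reads.

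Genes passing filterByExpr (minimum count 10) entered edgeR 4.0.16, run in R 4.3.3 (TMM factors, quasi-likelihood test, two-sided, prior count 0.125), and were called at an adjusted p of 0.05, with Benjamini-Hochberg adjustment over all genes. Transcripts were tested in a separate fit over all transcripts. The SE is the log2 fold change divided by the square root of F. Alternatives were DESeq2 1.42.0, DESeq2 size factors, library totals, no filter, the most read transcript, a replicate block, a threshold of 0.01 and leaving out each library. The code was tested on simulated data. Counting intervals cover counting error only, and floors cover it only for libraries without reads. Positions are from GENCODE 29, with SOCS7 matched by symbol.

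Members and lists were chosen with earlier results of these data known. Named genes were all members, up to 4 called genes of each list with the smallest p (the most read genes where fewer than 2 were called), 3 hormone checks and the 3 nearest profiles of each called member. One gene that this rule names is not reported here.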

Additional observations from a re-analysis of the deposited data

How the results depend on the processing

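The edgeR fit to all 4 libraries called 1684 genes, and a threshold of 0.01 left 995 of them. Other settings were separate fits, and their calls were counted anew and not matched to the 1684. DESeq2 called 999 genes, and leaving out 1 library gave 1111 (without etoh replicate 1) to 1965 (without dex replicate 2). Of the members, 2 were called. DESeq2 called 1 (SOCS5, with no adjusted p for SOCS1), and leaving out 1 library gave 1 (without dex replicate 2, where SOCS1 missed the count filter) to 3 (without etoh replicate 1, with SOCS2 added). SOCS2 ran from -0.58 to -0.053 over libraries left out. SOCS5 was called under all 11 alternatives run. The lists changed as follows. JAK and STAT genes called were 1 with the most read transcript, 1 with the replicate block, 0 at a threshold of 0.01 and 0 to 2 with a library left out. Ligands called were 2 by DESeq2, 2 with the most read transcript and 2 to 4 with a library left out. Brakes outside the family were 1, and ligase parts 0, with the most read transcript. Other proteins with a SOCS box were 1 by DESeq2 and 1 at a threshold of 0.01, and STAT-responsive genes 8 at 0.01. Some uncalled values changed sign with a library left out: CUL5 ran from -0.22 to 0.031, SOCS2-005 from -0.27 to 0.0099, SOCS2-011 from -0.41 to 0.80, SOCS2-007 from -0.62 to 0.42 and SOCS7-002 from -1.0004 to 0.017. The cause was not tested. Same-numbered libraries did not deviate together (correlation of deviations -0.092 over 14777 genes), and the replicate block called 1558 genes and 2 members, and STAT3 had an adjusted p of 0.053 in edgeR under the block. At this depth SOCS1 and CISH are limited by 31 and 19 reads over 4 libraries.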
